A study of Mus musculus with 16 samples.

Results

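Interferon-stimulated genes are the transcripts that cells raise when interferons reach them, and 39 of them, chosen by gene symbol, were followed in the mouse heart after ischemia and reperfusion. Of these, 38 were measured among 19505 genes tested, each by 1 probe set, and Ifi44 was not analysed here. The measured genes comprise 3 RNA sensors, 4 transcription factors, 3 Ifit genes, 5 genes of the oligoadenylate synthetase (Oas) family, 4 Mx and guanylate-binding genes, 3 genes of the ISG15 modifier system, 3 genes of the Parp9, Parp14 and Dtx3l group, 2 chemokines, 5 further antiviral effectors and 6 others. All mice were C57BL/6 males of 10 weeks, wild type per the labels, and whole hearts were profiled. The groups were sham-operated hearts, and hearts subjected to 30 min of occlusion of the left anterior descending artery and then 6, 24 or 72 h of reperfusion. Each group held 4 hearts with 1 array per heart, and values are the deposited log2 signals.

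Type I interferons bind the receptor IFNAR1 and IFNAR2, and the kinases JAK1 and TYK2 then activate the complex ISGF3, which contains STAT2 and IRF9 and binds interferon-stimulated response elements (ISRE) in promoters. Interferon gamma acts through its own receptor and on promoters with gamma-activated sites (GAS). In the injured heart, nucleic acids released from dying cells can be sensed by infiltrating and resident macrophages, which are a known source of type I interferon.

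The letters of the ISRE were looked for first, because they are the feature that defines much of this gene class. RefSeq promoter windows of GRCm38.p6, from 250 bases before to 50 bases after a transcript start, were at hand for 30 of the 38 genes. The ISRE core, spelled GAAA, any 2 bases and GAAA again (TTTC, 2 bases and TTTC on the other strand), was read on both strands. It stood in at least 1 window of 15 of the 30 genes (50%), against 3.94% of 15691 tested genes with a window. The GAS core TTCNNNGAA, which reads the same on both strands, stood in 7 of the 30 (23.3%), against 9.02% of tested genes. The genes had been listed for their known response to interferon, so these shares describe the list. A match to these letters is not a measured binding site, and both cores can overlap, as they do in Bst2.

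The stretches that follow come from Cxcl10, Ifit1, Ifit3 and Bst2, which are among the 5 largest rises at 6, 24 or 72 h, with Isg15 added because 3 overlapping cores stand in it. Trim30a, also among those rises at 24 h, holds the core before the start in 1 of its windows and is not shown. Other genes among the largest rises lack the core in their windows: Oasl2, Lgals3bp and Irf7 at 72 h, and Samhd1 at 24 h, which holds a GAS core. Mx1 and Mx2, among those at 6 h, had no window. Each stretch is written in the direction of its gene and ends before the transcript start, and capitals mark the matches to the ISRE core.
Cxcl10, chr5:92349073-92349122, minus strand: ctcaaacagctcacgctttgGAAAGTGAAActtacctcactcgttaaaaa
Ifit1, chr19:34640765-34640833, plus strand: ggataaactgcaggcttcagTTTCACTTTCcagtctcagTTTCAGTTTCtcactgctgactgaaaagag
Ifit3, chr19:34583353-34583436, plus strand: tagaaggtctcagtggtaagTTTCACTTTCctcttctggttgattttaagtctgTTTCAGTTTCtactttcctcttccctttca
Isg15, chr4:156200855-156200916, minus strand: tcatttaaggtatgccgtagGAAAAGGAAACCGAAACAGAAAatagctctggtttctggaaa
Bst2, chr8:71537567-71537622, minus strand: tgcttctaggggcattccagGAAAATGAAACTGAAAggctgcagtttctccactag
Ifit1 and Ifit3 each hold 2 separate cores, Cxcl10 holds 1, and those of Isg15 and Bst2 overlap one another.

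Changes below are differences of group mean log2 signal ± SE. They were tested with limma over all 16 arrays with Benjamini-Hochberg adjustment over all 19505 genes, and "rose" and "fell" are kept for an adjusted p below 0.05. A mean under 6.76, below which 75% of values of negative control probe sets lie, is called below background, and there the size of a change depends on the background. With 4 hearts per group, the median SE against sham was 0.269 for these genes, against 0.183 for all genes. Sham hearts carry no hours in their labels and are compared with every time, so time after surgery and reperfusion cannot be told apart. In whole hearts, fewer cells of a type and less RNA per cell cannot be told apart either. Over the 4 groups, 26 of the 38 genes differed by limma's F test, against 44.5% of all genes. All 12 cardiomyocyte markers were above background in every group.

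One array stood apart in these genes. Replicate 7 of the 6 h group had the highest signal of its group for 34 of the 38 genes (89.5%), against 22.0% of all genes, and its median over the 38 lay 0.94 above the mean of the other 3 hearts of that group. Over all genes that median was -0.01. In sham, replicate 5 was the highest for 28 of the 38 (73.7%, against 30.9% of all genes). At 24 h, replicate 16 was the highest for 23 (60.5%, against 26.4% of all genes). Relative to the sham mean, the median of the 38 genes was -0.27, -0.22, 0.00 and 0.42 on the 4 sham arrays, 1.01, 0.13, 0.22 and 0.16 at 6 h, 0.23, 0.08, 0.52 and 0.12 at 24 h, and 1.07, 0.91, 0.80 and 1.08 at 72 h. The 4 hearts at 72 h thus all lay above every sham and 24 h heart, and the 6 h group split into 1 heart near the 72 h level and 3 near the 24 h level. For the 38 genes, the calls and the median at 6 h against sham are given with and without replicate 7. Results of the other gene lists at 6 h include that heart.

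**Figure D1:**
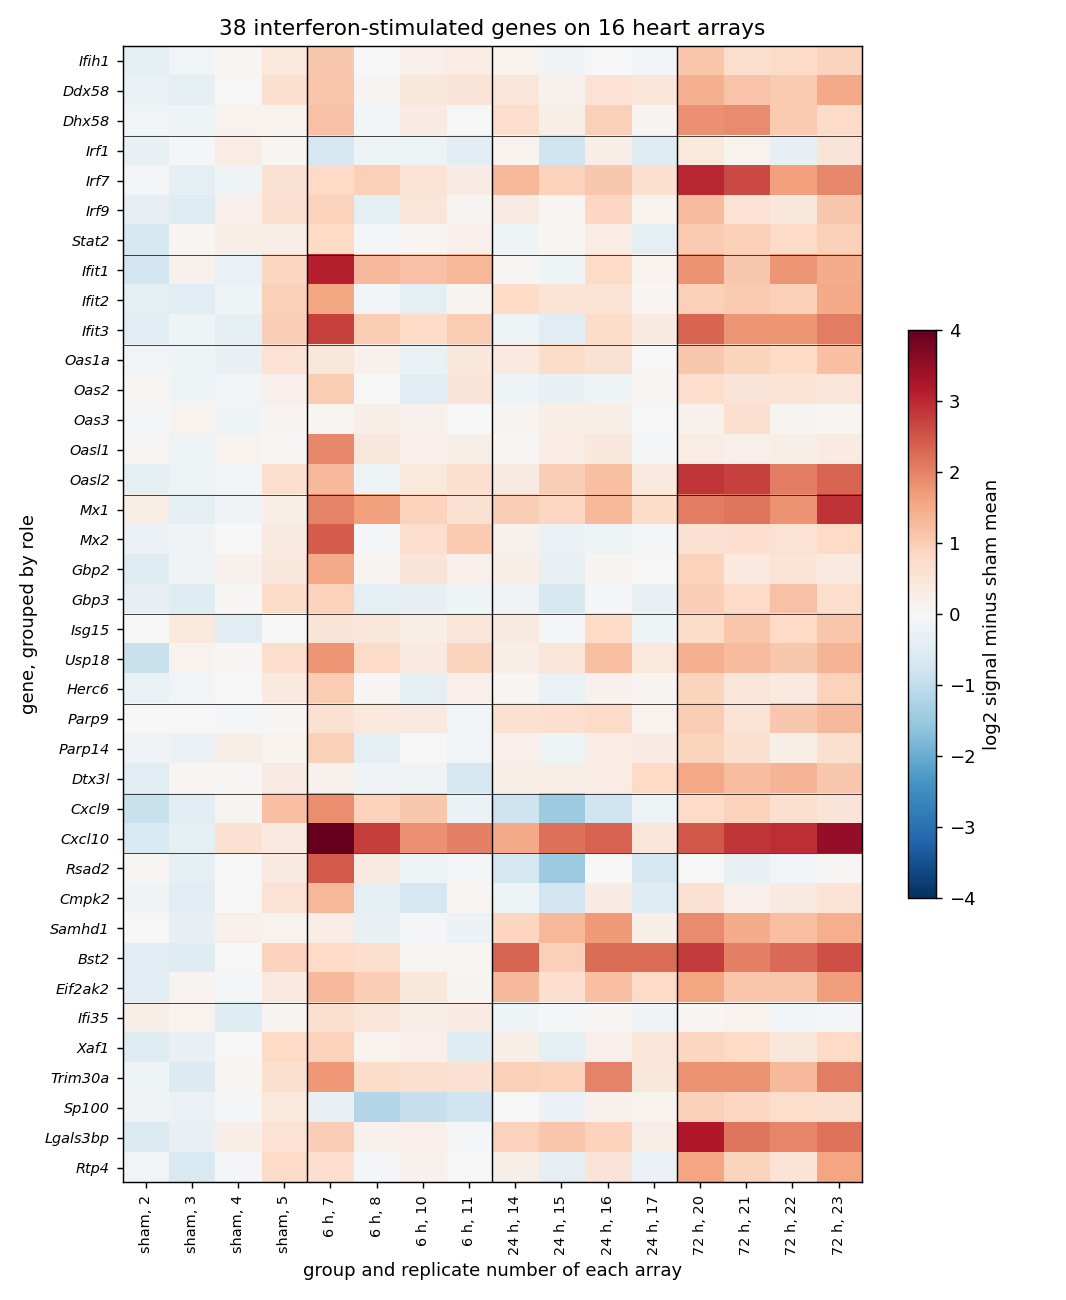
Log2 signal of the 38 genes (rows, grouped by role) on each of the 16 arrays (columns, in the order sham, 6 h, 24 h and 72 h) relative to the sham mean of the gene. Replicate 7 of the 6 h group is higher than its 3 companions in most rows, and the 4 columns at 72 h are higher than sham in most rows.

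At 72 h of reperfusion the interferon-stimulated genes were broadly higher than in sham hearts. Of the 38, 26 rose (68.4%) and 0 fell, while 11.5% of all genes rose and 10.3% fell in that comparison. Cxcl10 rose most, by 2.95 ± 0.58, followed by Oasl2 (2.49 ± 0.29), Bst2 (2.42 ± 0.32), Lgals3bp (2.36 ± 0.29) and Irf7 (2.30 ± 0.26). The median difference of the 38 genes was 0.96, against -0.09 for all genes, and 37 of the 38 differences were above 0. The 4 arrays at 72 h lay above all 4 sham arrays for 26 of the 38, against 12.7% of all genes, and below them for 0, against 14.4%. Of the 26 genes that rose, 22 also had arrays that did not overlap.

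**Figure D2:**
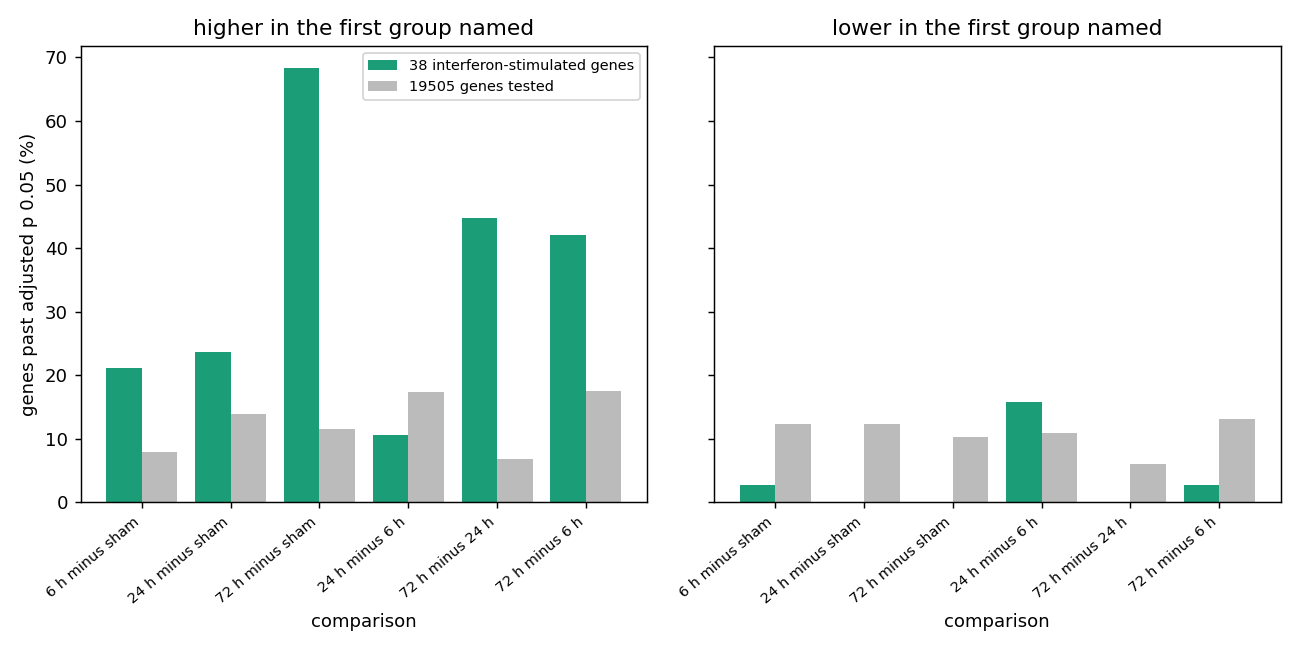
Percentage of the 38 interferon-stimulated genes and of all 19505 tested genes that were higher or lower in each of 6 comparisons (limma, adjusted p below 0.05). At 72 h against sham, 68.4% of the 38 genes rose, against 11.5% of all genes.

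All 3 RNA sensors rose at 72 h. Dhx58 encodes LGP2, which lacks the signalling domains of its relatives and modulates them. Its signal was 6.41, 6.47, 5.61 and 5.33 in the 72 h hearts, against 4.48, 4.40, 4.70 and 4.72 in sham hearts, a rise of 1.38 ± 0.28 (limma, adjusted p = 0.00123). The 2 groups did not overlap, yet both means were below background. Ifih1 encodes MDA5, the sensor of long double-stranded RNA. It was at 10.45, 10.06, 10.10 and 10.24 in the 72 h hearts, against 8.96, 9.22, 9.43 and 9.77 in sham hearts, and rose by 0.87 ± 0.20 (limma, adjusted p = 0.00421). Every 72 h heart was above every sham heart, the nearest sham heart being replicate 5. Ddx58, which encodes RIG-I, the sensor of RNA with a 5′ triphosphate, rose by 1.28 ± 0.22.

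Among the transcription factors, Irf7, Irf9 and Stat2 rose at 72 h and Irf1 did not pass the test. Irf7 drives the transcription of interferon alpha genes and is itself induced by interferon. Its signal was 4.20, 3.89, 4.08 and 4.87 in sham hearts, 5.07, 5.21, 4.82 and 4.60 at 6 h, 5.60, 5.18, 5.33 and 4.91 at 24 h, and 7.28, 6.89, 5.90 and 6.19 at 72 h. The 24 h and 72 h hearts lay above all sham hearts, and the 6 h hearts overlapped them. Irf7 was 4.94 times as high at 72 h as in sham on the deposited scale (limma, adjusted p = 3e-06), with all group means below background. It was also higher at 72 h than at 24 h, by 1.31 ± 0.26 (limma, adjusted p = 0.00212).

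Stat2, a subunit of ISGF3, was at 9.62, 9.51, 9.33 and 9.52 in the 72 h hearts, against 7.92, 8.65, 8.84 and 8.83 in sham hearts. These groups did not overlap, and the rise was 0.94 ± 0.21 (limma, adjusted p = 0.00337). Irf9, the DNA-binding subunit of ISGF3, rose by 0.84 ± 0.28, with overlapping arrays. Irf1, a factor best known as a target of interferon gamma, differed by 0.19 ± 0.23 at 72 h, -0.23 ± 0.23 at 24 h and -0.37 ± 0.23 at 6 h.

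The Ifit proteins bind viral RNA and block its translation. Ifit3 was at 9.21, 9.46, 9.23 and 10.61 in sham hearts, 12.35, 10.65, 10.41 and 10.65 at 6 h, 9.41, 9.21, 10.35 and 10.00 at 24 h, and 11.97, 11.38, 11.38 and 11.67 at 72 h. The 24 h hearts overlapped the sham hearts, and the 72 h hearts lay above both groups. Ifit3 rose by 1.39 ± 0.37 at 6 h (limma, adjusted p = 0.0107) and by 1.97 ± 0.37 at 72 h (limma, adjusted p = 0.000656), against 0.11 ± 0.37 at 24 h (limma, adjusted p = 0.866). The drop between times was itself past the test: Ifit3 was lower at 24 h than at 6 h, by -1.28 ± 0.37 (limma, adjusted p = 0.0142), and higher at 72 h than at 24 h, by 1.86 ± 0.37 (limma, adjusted p = 0.00194). Without 6 h replicate 7 the drop to 24 h was -0.83 (limma, adjusted p = 0.055).

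Ifit1 went the same way. It was at 4.94, 5.86, 5.44 and 6.57 in sham hearts, 8.80, 7.0, 6.86 and 7.02 at 6 h, 5.75, 5.54, 6.48 and 5.84 at 24 h, and 7.51, 6.78, 7.47 and 7.20 at 72 h. All 6 h and all 72 h hearts lay above all sham and all 24 h hearts, and the sham and 24 h means were below background. The rise was 1.72 ± 0.37 at 6 h and 1.54 ± 0.37 at 72 h, and the 24 h mean was 1.52 below the 6 h mean, a difference of -1.06 without replicate 7 (limma, adjusted p = 0.014). Ifit2 rose at 72 h, by 1.12 ± 0.34.

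Of the Oas family, Oasl2 and Oas1a rose at 72 h, and Oas2, Oas3 and Oasl1 did not pass the test. Oas enzymes make an oligoadenylate that activates RNase L, and Oasl2 is an Oas-like protein. Oasl2 was at 10.19, 10.05, 9.38 and 9.64 in the 72 h hearts, against 6.97, 7.11, 7.23 and 8.00 in sham hearts. The lowest 72 h heart was above the highest sham heart, and the fold of the means was 5.60 (limma, adjusted p = 3.47e-06). At 6 h and 24 h the differences from sham were 0.54 ± 0.29 and 0.73 ± 0.29, and Oasl2 was higher at 72 h than at either (by 1.94 ± 0.29 over 6 h and 1.75 ± 0.29 over 24 h). Oas1a rose by 0.98 ± 0.21, with means below background, and the differences of the other 3 at 72 h were 0.25 to 0.56, all below background too.

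Mx1, a GTPase that traps incoming viral particles, rose at every time. It was at 4.76, 4.14, 4.36 and 4.76 in sham hearts, 6.48, 6.13, 5.42 and 5.11 at 6 h, 5.48, 5.32, 5.82 and 5.25 at 24 h, and 6.55, 6.65, 6.30 and 7.39 at 72 h. Every reperfused heart lay above every sham heart, although all 4 group means were below background. The rises were 1.28 ± 0.27, 0.96 ± 0.27 and 2.21 ± 0.27 at 6, 24 and 72 h, with limma adjusted p-values of 0.00179, 0.0118 and 6.31e-06. C57BL/6 mice are known to carry a defective Mx1 allele.

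Mx2 rose at 6 h, by 1.02 ± 0.33, and did not pass the test at 72 h (0.66 ± 0.33, limma, adjusted p = 0.165). Guanylate-binding proteins attack pathogen vacuoles, and Gbp2 did not pass the test at any time. Gbp2 was at 9.40, 9.74, 10.05 and 10.34 in sham hearts, 11.39, 9.99, 10.41 and 10.10 at 6 h, 10.15, 9.59, 9.99 and 9.86 at 24 h, and 10.81, 10.28, 10.43 and 10.26 at 72 h. All groups overlapped sham, with replicate 7 of the 6 h group alone above 11. Gbp3 rose by 0.90 ± 0.27 at 72 h and was also higher there than at 24 h, by 1.19 ± 0.27.

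The ISG15 system adds a ubiquitin-like protein to others, and its 3 measured genes all rose at 72 h. Usp18 removes ISG15 from proteins and dampens signalling at the type I receptor. It was at 6.15, 7.21, 7.11 and 7.75 in sham hearts, 8.82, 7.82, 7.44 and 7.96 at 6 h, 7.32, 7.55, 8.27 and 7.47 at 24 h, and 8.47, 8.33, 8.13 and 8.42 at 72 h. The 72 h hearts lay above all sham hearts, and the other times overlapped them. The rise was 0.95 ± 0.30 at 6 h (limma, adjusted p = 0.0286) and 1.28 ± 0.30 at 72 h (limma, adjusted p = 0.00391).

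Herc6, the main ISG15 ligase of the mouse, was at 9.90, 9.51, 9.41 and 9.94 in the 72 h hearts, against 8.74, 8.92, 9.0 and 9.42 in sham hearts. The highest sham heart, replicate 5, was within the 72 h range, and the rise of 0.67 ± 0.23 was just past the threshold (limma, adjusted p = 0.0458). Isg15 itself, whose promoter stretch holds the 3 overlapping cores, rose by 0.94 ± 0.20 at 72 h (limma, adjusted p = 0.0021). Its signal stayed below background in all groups, so its fold of 1.92 cannot be read as the size of the change in transcript.

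Parp9 and Dtx3l are partners in a ubiquitin ligase complex, and both rose at 72 h. Dtx3l was at 8.28, 7.95, 8.10 and 7.82 in the 72 h hearts, against 6.26, 6.81, 6.77 and 7.07 in sham hearts. No arrays overlapped, the sham mean was below background, and the rise was 1.31 ± 0.20 (limma, adjusted p = 6.75e-05). Dtx3l was higher at 72 h than at 24 h, by 0.92 ± 0.20, and higher at 24 h than at 6 h, by 0.58 ± 0.20. Parp9 rose by 0.54 ± 0.18 at 24 h and 0.98 ± 0.18 at 72 h. Parp14, a mono-ADP-ribosyltransferase, was at 8.60, 8.34, 7.96 and 8.34 in the 72 h hearts, against 7.56, 7.48, 7.96 and 7.85 in sham hearts, with the lowest 72 h heart and the highest sham heart level at this rounding. It did not pass the test (0.60 ± 0.23, limma, adjusted p = 0.067).

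The 2 chemokines attract cells that carry the receptor CXCR3, such as T and NK cells. Cxcl10 was at 3.66, 3.88, 4.86 and 4.66 in sham hearts, 9.77, 7.02, 6.08 and 6.27 at 6 h, 5.77, 6.48, 6.61 and 4.75 at 24 h, and 6.76, 7.13, 7.21 and 7.79 at 72 h. All 6 h and 72 h hearts lay above all sham hearts, and 1 of the 24 h hearts fell within the sham range. The rises were 3.02 ± 0.58 at 6 h (limma, adjusted p = 0.000804), 1.64 ± 0.58 at 24 h (limma, adjusted p = 0.0449) and 2.95 ± 0.58 at 72 h (limma, adjusted p = 0.000994), with the sham and 24 h means below background. Cxcl10 had the largest SE of the 38 genes, and replicate 7 was the highest of all hearts. From 6 h to 24 h Cxcl10 differed by -1.38 and did not pass the test (limma, adjusted p = 0.0853). Without replicate 7 this difference was -0.55 (limma, adjusted p = 0.332). The difference of Cxcl10 from 24 h to 72 h did not pass the test either.

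Cxcl9, which depends more on interferon gamma, did not pass the test against sham at any time. It was at 6.02, 6.50, 7.03 and 8.13 in sham hearts, 8.79, 7.83, 7.99 and 6.66 at 6 h, 6.09, 5.48, 6.12 and 6.73 at 24 h, and 7.69, 7.84, 7.56 and 7.44 at 72 h. The sham hearts alone spread over more than 2 log2 units. Between times, Cxcl9 was lower at 24 h than at 6 h, by -1.72 ± 0.40 (limma, adjusted p = 0.00295), and higher at 72 h than at 24 h, by 1.53 ± 0.40 (limma, adjusted p = 0.0142).

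**Figure D3:**
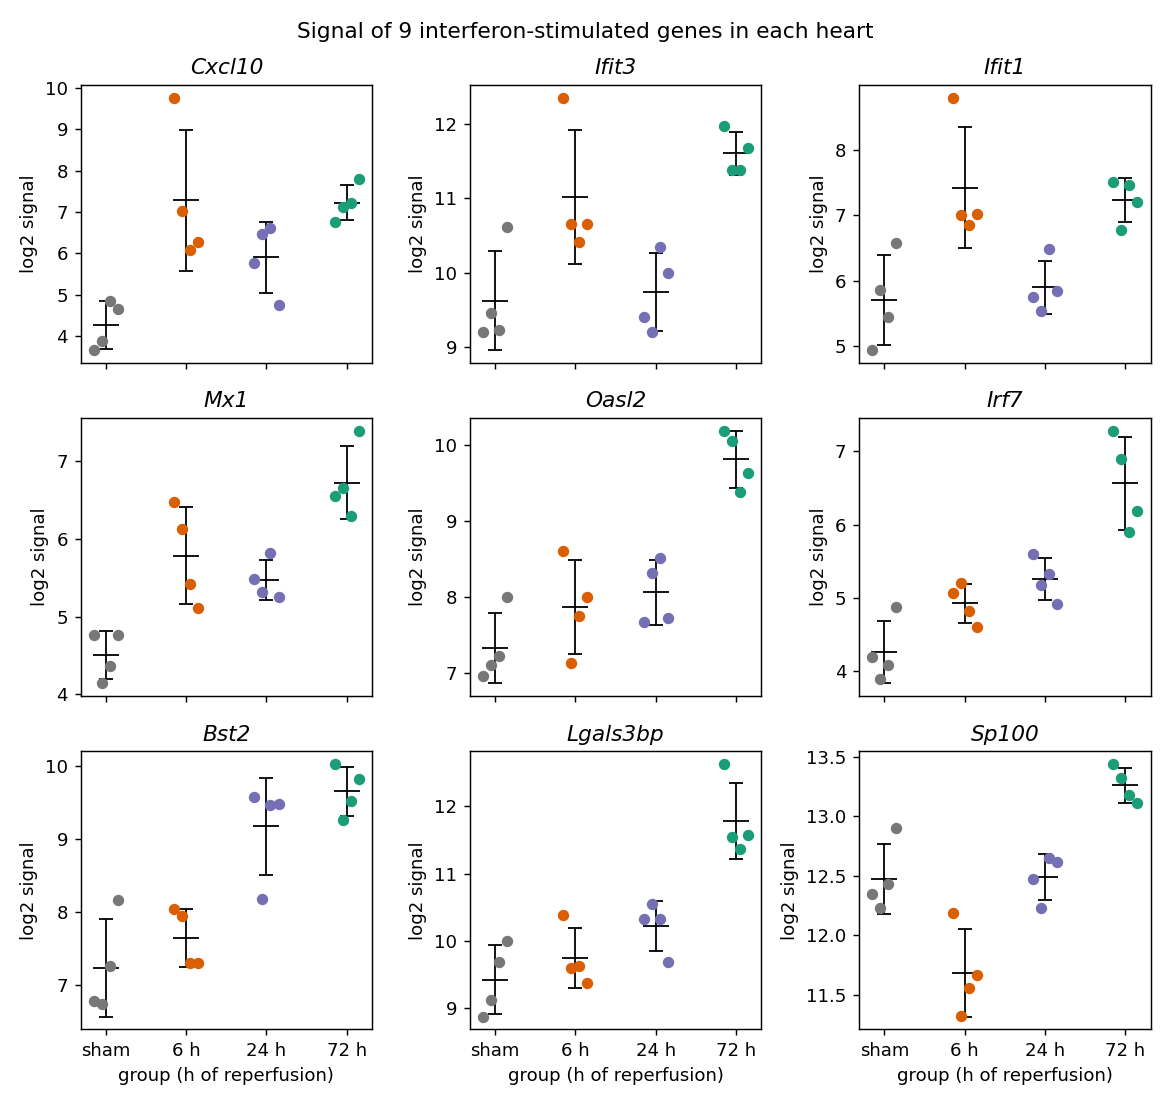
Log2 signal of 9 interferon-stimulated genes in each heart, in the order sham, 6 h, 24 h and 72 h; points are hearts and bars are the mean and SD of 4. Ifit3 and Ifit1 are low at 24 h between higher 6 h and 72 h values, Bst2 is already high at 24 h, and Sp100 is lowest at 6 h. The Cxcl10 mean is also lower at 24 h than at 6 h and 72 h, but neither difference passed the test.

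Of the antiviral effectors, Bst2, Samhd1 and Eif2ak2 rose at 72 h, and Rsad2 and Cmpk2 did not pass the test. Bst2 encodes tetherin, which holds budding virions on the cell surface. It was at 6.78, 6.74, 7.26 and 8.17 in sham hearts, 8.04, 7.94, 7.30 and 7.31 at 6 h, 9.57, 8.18, 9.46 and 9.47 at 24 h, and 10.02, 9.26, 9.51 and 9.81 at 72 h. The 24 h hearts, the lowest by a narrow margin, and the 72 h hearts lay above all sham hearts, and the 6 h hearts overlapped them. Bst2 rose by 1.94 ± 0.32 at 24 h (limma, adjusted p = 0.00014) and by 2.42 ± 0.32 at 72 h (limma, adjusted p = 1.65e-05), against 0.41 ± 0.32 at 6 h, and it was higher at 24 h than at 6 h by 1.52 ± 0.32.

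Samhd1, which breaks down the deoxynucleotides that viruses need, was at 10.45, 10.10, 10.65 and 10.57 in sham hearts, 10.73, 10.15, 10.39 and 10.21 at 6 h, 11.29, 11.76, 12.15 and 10.68 at 24 h, and 12.33, 11.94, 11.65 and 11.89 at 72 h. Its 6 h hearts overlapped sham, and its later hearts did not. The rise was 1.03 ± 0.24 at 24 h (limma, adjusted p = 0.00357) and 1.51 ± 0.24 at 72 h (limma, adjusted p = 0.000142). Eif2ak2, the kinase PKR that halts translation on double-stranded RNA, rose at all 3 times, by 0.70 ± 0.24, 0.99 ± 0.24 and 1.37 ± 0.24 at 6, 24 and 72 h. Rsad2, which encodes viperin, differed by 0.63 ± 0.41, -0.70 ± 0.41 and -0.09 ± 0.41, and Cmpk2, its genomic neighbour, by 0.08 ± 0.33, -0.29 ± 0.33 and 0.43 ± 0.33.

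Lgals3bp, Sp100, Trim30a and Rtp4 rose at 72 h among the other genes. Lgals3bp encodes a secreted glycoprotein that binds galectins. It was at 12.63, 11.55, 11.37 and 11.58 in the 72 h hearts, against 8.87, 9.12, 9.69 and 10.00 in sham hearts, and the gap between the groups was over 1 log2 unit. Its rise was 0.80 ± 0.29 at 24 h and 2.36 ± 0.29 at 72 h, and it was higher at 72 h than at 24 h by 1.56 ± 0.29 (limma, adjusted p = 0.00113). The 24 h rise was called in 5 of the 16 fits that each left out 1 array. With arrays centred on the poly-A spike-ins it was 0.71 (limma, adjusted p = 0.0939).

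Sp100, a protein of nuclear bodies, was the 1 gene called in opposite directions. It was at 12.35, 12.23, 12.43 and 12.90 in sham hearts, 12.19, 11.32, 11.56 and 11.67 at 6 h, 12.47, 12.23, 12.65 and 12.62 at 24 h, and 13.44, 13.32, 13.18 and 13.11 at 72 h. The 6 h hearts lay below all sham hearts and the 72 h hearts above them. Sp100 fell by 0.79 ± 0.18 at 6 h (limma, adjusted p = 0.00378) and rose by 0.78 ± 0.18 at 72 h (limma, adjusted p = 0.00404), and the 72 h to 6 h difference was 1.58 ± 0.18 (limma, adjusted p = 1.96e-06).

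Trim30a, a negative regulator of innate signalling, rose at all 3 times, by 0.92 ± 0.31, 1.07 ± 0.31 and 1.74 ± 0.31. Rtp4 rose by 1.16 ± 0.28 at 72 h. Xaf1, a pro-apoptotic protein, and Ifi35 differed at 72 h by 0.73 ± 0.28 and 0.01 ± 0.16 and did not pass the test.

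**Figure D4:**
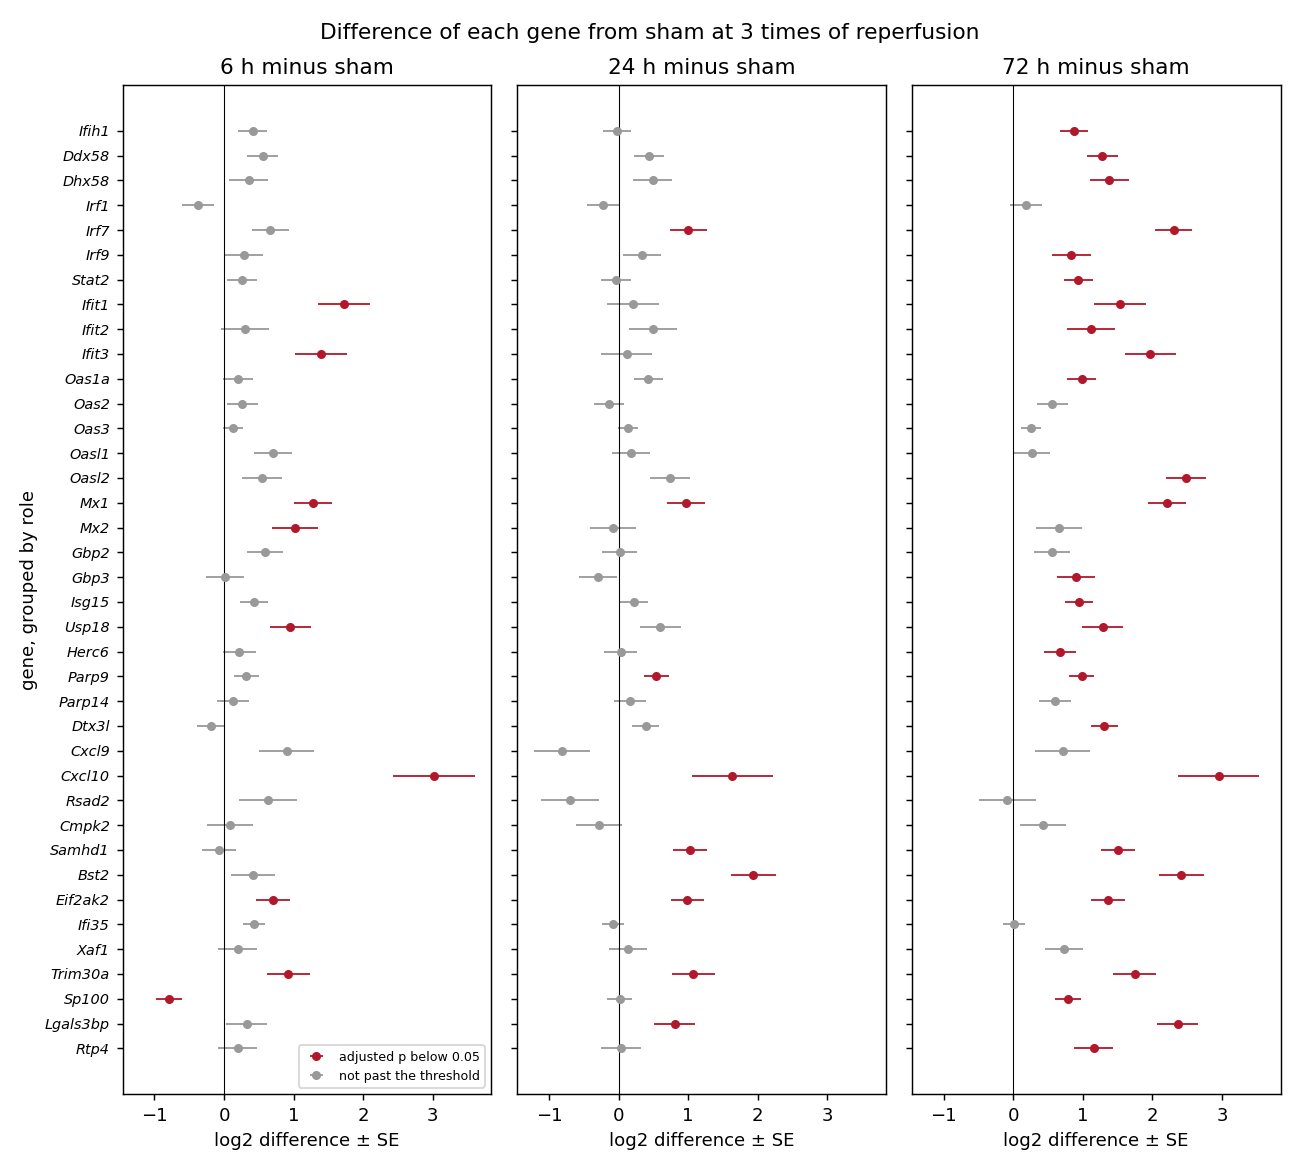
Log2 difference from sham ± SE for each of the 38 genes at 6, 24 and 72 h, with red points at an adjusted p below 0.05 (limma). At 72 h 26 genes are red, all right of 0, against 9 at 6 h (8 right of 0 and Sp100 left of it) and 9 at 24 h.

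At 6 h, 8 of the 38 genes rose (21.1%) and 1 fell (2.63%), while 7.92% of all genes rose and 12.3% fell. Cxcl10, Ifit1, Ifit3, Mx1 and Mx2 had the largest rises, and Usp18, Trim30a and Eif2ak2 were the other 3. Arrays did not overlap sham for 5 genes above and 1 below, against 9.06% and 13.7% of all genes. The median difference was 0.38, against -0.04 for all genes. Without replicate 7, Cxcl10, Ifit1, Ifit3 and Mx1 still rose and the median was 0.17. Without that heart the other 4 had limma adjusted p-values of 0.0883 for Mx2, 0.119 for Usp18, 0.164 for Trim30a and 0.177 for Eif2ak2. Without sham replicate 2, 3 or 4 in turn, 5, 5 and 4 genes rose at 6 h. All 5 of the 8 genes with a promoter window (Cxcl10, Ifit1, Ifit3, Eif2ak2 and Trim30a) held the ISRE core, as did 12 of the 21 genes with a window that rose at 72 h (57.1%) and 3 of the 9 that were not called there (33.3%). The core of Eif2ak2 lies after the transcript start. These sets are small and come from genes listed for their response to interferon, and a link between core and rise was not tested.

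At 24 h, 9 of the 38 rose (23.7%) and 0 fell, while 13.8% of all genes rose and 12.3% fell. Bst2, Cxcl10, Trim30a, Samhd1 and Irf7 rose most, and Eif2ak2, Mx1, Lgals3bp and Parp9 were the other 4. Over the 16 fits that each left out 1 array, Trim30a was called in 14, Parp9 in 9, Cxcl10 in 6 and Lgals3bp in 5. The other 5 genes were called in all 16. The median difference was 0.19, against -0.07 for all genes, and arrays lay above all sham arrays for 6 genes, against 12.9% of all genes, and below them for 0, against 13%. Without 24 h replicate 16 or without sham replicate 3, 5 genes rose at 24 h. The median was 0.42 without sham replicate 5, 0.32 without 24 h replicate 15 and 0.11 without 24 h replicate 16. The atrial-marker median of replicate 16 was 1.49 above the sham mean, while its 3 companions had medians of -0.38 to -0.11, and the part of this in the result was not tested.

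Between 24 h and 6 h, 4 of the 38 genes were called higher and 6 lower, shares near those of all genes. Dtx3l, Samhd1, Bst2 and Sp100 were higher at 24 h (10.5%, against 17.3% of all genes), and Cxcl9, Ifit1, Rsad2, Ifit3, Mx2 and Ifi35 were lower (15.8%, against 10.9%), with Ifi35 at 0.0135 under hybridization spike-in centring. Arrays did not overlap for 3 genes above, against 15% of all genes, and 3 below, against 9.89%. Without 6 h replicate 7, Cxcl9, Ifit1, Rsad2 and Mx2 were still lower and Ifit3 and Ifi35 did not pass the test. The median difference was -0.14, against -0.04 for all genes. It was 0.05 without 6 h replicate 7 and -0.03 without 24 h replicate 15. Its sign also depends on scaling: centring on the hybridization spike-ins made it 0.39 with all genes at 0.49, and centring on the poly-A spike-ins made it 0.10 with all genes at 0.20. Relative to all genes it was -0.10 under each of these 3 scalings, -0.25 under quantile normalization and -0.30 with dim genes left out.

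The step to 72 h was upward in all 38 genes from 24 h and in 30 of them from 6 h. Against 24 h, 17 of the 38 were higher at 72 h (44.7%) and 0 were lower, while 6.85% of all genes were higher and 6.07% lower. All 38 differences were above 0 with a median of 0.71, against -0.02 for all genes. Arrays at 72 h lay above all 24 h arrays for 21 genes, against 7.79% of all genes, and below them for 0, against 7.86%. Ifit3, Oasl2, Lgals3bp, Cxcl9 and Ifit1 gained most, by 1.86 to 1.34. Without 24 h replicate 15, 11 genes were higher at 72 h than at 24 h. Against 6 h, 16 were higher at 72 h (42.1%) and Ifi35 was lower (2.63%), a sign that turned under both spike-in centrings, while 17.5% of all genes were higher and 13.1% lower. Arrays lay above for 9 genes, against 17.1% of all genes, and below for 1, against 13.4%. Lgals3bp (2.04 ± 0.29), Bst2 (2.00 ± 0.32), Oasl2 (1.94 ± 0.29), Irf7 (1.64 ± 0.26) and Samhd1 (1.58 ± 0.24) gained most, beside Sp100. From 6 h to 72 h the median difference was 0.57, against -0.06 for all genes. Without 6 h replicate 7, 25 genes were higher at 72 h than at 6 h.

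By calls against sham, 14 genes rose at 72 h and did not rise at 6 or 24 h by the same test, with Sp100 lower at 6 h: Ddx58, Dhx58, Dtx3l, Gbp3, Herc6, Ifih1, Ifit2, Irf9, Isg15, Oas1a, Oasl2, Rtp4, Sp100 and Stat2. Of these, 10 were higher at 72 h than at 24 h, 9 were higher than at 6 h, and 8 passed both tests. Of all genes, 11.5% rose at 72 h, 6.85% were higher there than at 24 h and 17.5% higher than at 6 h. The share that rose at 72 h only was not counted, so these numbers describe the 38 genes alone. The mean of 30 of the 38 genes was highest at 72 h, against 18.4% of all genes, and that of the other 8 was highest at 6 h. The 24 h mean lay below both the 6 h and the 72 h mean for 21 genes, against 29.5% of all genes.

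The genes above interferon in the pathway were next described. Of 19 interferon genes measured, 0 rose at any time, and 18 were below background in every group. Ifna5 was the exception and fell by 0.62 ± 0.22 at 24 h and 0.77 ± 0.22 at 72 h. Ifnb1, the interferon beta gene, differed from sham by 0.08 ± 0.18, 0.03 ± 0.18 and -0.17 ± 0.18 at 6, 24 and 72 h. Ifng, the interferon gamma gene, differed by 0.01 ± 0.20, 0.14 ± 0.20 and 0.33 ± 0.20. A mean below background limits what these arrays show of the ligands.

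Of 17 nucleic acid sensors and adaptors that lead to interferon, 7 rose at 6 h (41.2%, against 7.92% of all genes), 9 at 24 h (52.9%, against 13.8%) and 11 at 72 h (64.7%, against 11.5%). At each time 1 was lower, and 9, 7 and 5 did not pass the test, while 12.3%, 12.3% and 10.3% of all genes fell. Tlr7, the endosomal sensor of single-stranded RNA, rose by 2.38 ± 0.30, 1.91 ± 0.30 and 3.86 ± 0.30. Sting1, the adaptor of cytosolic DNA sensing, rose by 2.60 ± 0.29, 2.30 ± 0.29 and 2.55 ± 0.29. Tlr8 and the DNA sensor Tlr9 rose at 72 h by 2.37 ± 0.24 and 2.08 ± 0.19. Mavs, the adaptor of the RNA sensors above, fell by 1.84 ± 0.19, 0.95 ± 0.19 and 1.05 ± 0.19. Irf3, the factor activated by both adaptors, differed by -0.47 ± 0.18, 0.51 ± 0.18 and 0.25 ± 0.18 and passed the test at 24 h and not at 6 or 72 h.

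Of 13 receptor and signalling genes, 5, 6 and 5 rose and 2, 2 and 0 fell at 6, 24 and 72 h. The shares that rose were 38.5%, 46.2% and 38.5%, against 7.92%, 13.8% and 11.5% of all genes, and the shares that fell were 15.4%, 15.4% and 0%, against 12.3%, 12.3% and 10.3%. Ifnar1 fell by 0.52 ± 0.16 at 6 h and rose by 0.92 ± 0.16 at 24 h and 1.05 ± 0.16 at 72 h. Ifngr1, a chain of the interferon gamma receptor, rose by 0.60 ± 0.15 at 6 h. Jak2 and the inhibitors Socs3 and Ptpn2 had their largest rises at 6 h, by 1.55 ± 0.18, 1.63 ± 0.25 and 1.11 ± 0.15. Socs1, another inhibitor of the pathway, did not pass the test at any time and differed by 0.22 ± 0.15, 0.00 ± 0.15 and 0.25 ± 0.15.

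A further 50 interferon-stimulated genes, listed apart from the 38, were also read. Of these, 16 rose at 6 h (32%), 20 at 24 h (40%) and 31 at 72 h (62%), with 1, 1 and 0 lower. Of all genes, 7.92%, 13.8% and 11.5% rose and 12.3%, 12.3% and 10.3% fell. The median differences of the 50 genes were 0.31, 0.31 and 0.88. Ms4a4c, a membrane protein of myeloid cells, rose by 2.01 ± 0.36, 2.85 ± 0.36 and 3.80 ± 0.36. The Ifi200 family genes Ifi211, Ifi207 and Ifi204, relatives of DNA-binding innate sensors, rose by 3.70 ± 0.21, 3.45 ± 0.27 and 2.98 ± 0.28 at 6 h and by 3.42 ± 0.21, 3.19 ± 0.27 and 3.01 ± 0.28 at 72 h. Near copies in this family can share probes, so their values are uncertain as those of single genes. Of 14 GTPases and related genes that answer chiefly to interferon gamma, 2 rose at 6 h (Gvin1 and Igtp), 0 at 24 h with Iigp1 lower, and 3 at 72 h (Irgm1, Irgm2 and Irf8). The shares that rose were 14.3%, 0% and 21.4%, against 7.92%, 13.8% and 11.5% of all genes, and the 7.14% lower at 24 h compares with 12.3%. Between times, Gbp7, Irgm1, Irgm2, Igtp, Iigp1 and Tgtp2 were higher at 72 h than at 24 h, by 0.80 to 1.34. The others of this list did not pass that test, and 6.85% of all genes were higher. Igtp, Tgtp2 and Gvin1 were lower at 24 h than at 6 h (-0.93, -1.40 and -0.71), while 10.9% of all genes were lower.

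Markers of other cells moved with the same comparisons. For the counts below, 7.92%, 13.8% and 11.5% of all genes rose and 12.3%, 12.3% and 10.3% fell at 6, 24 and 72 h. Of 18 monocyte and macrophage markers, 9 rose at 6 h, 17 at 24 h and 17 at 72 h, with medians over each array of 0.82 to 1.44, 1.94 to 3.79 and 3.04 to 4.00 above the sham mean, against -0.27 to 0.28 in sham. Itgam, Ccr2, Fcer1g and Chil3 had the largest rises of that list. The log2 of the summed signal of that list was 13.34 to 13.77 in sham, 14.38 to 14.63 at 6 h, 15.14 to 16.87 at 24 h and 16.57 to 17.39 at 72 h. Of 12 neutrophil markers, 8, 9 and 3 rose, with array medians of 2.45 to 4.50, 1.35 to 4.63 and 0.34 to 1.81. Of 10 fibroblast markers, 1, 4 and 9 rose and 2, 2 and 0 fell, with medians of -0.29, 0.42 and 2.18 and the largest rise for Col1a1 at 72 h. Cardiomyocyte markers were lower in 0, 6 and 5 of 12. Their part in the results was not tested. Replicate 7 of the 6 h group, the heart apart in the interferon-stimulated genes, had a macrophage-marker median of 1.44, against 0.82, 1.15 and 1.11 for the others of its group, and a neutrophil-marker median of 3.22, against 3.09, 4.50 and 2.45.

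Lymphoid and dendritic cell lists were dim. All 16 T and NK cell, all 7 B cell and all 9 dendritic cell markers had group means below background in all 4 groups. Cd209a, a dendritic and macrophage lectin, rose by 1.81 ± 0.26 at 24 h and 2.24 ± 0.26 at 72 h. Itgax rose by 1.03 ± 0.24 at 24 h and H2-DMb2 by 1.11 ± 0.32 at 72 h, while Batf3 was lower at 6 h, by -0.49 ± 0.17. The activating receptor gene Klrk1 rose at every time, by 0.91 ± 0.16 at 6 h, while Ncr1 was lower at 6 h, by -0.52 ± 0.18. No other gene of these lists passed the test against sham. Of 8 plasmacytoid dendritic cell markers, Bst2 is itself one of the 38 genes and was the 1 that rose, while the more specific Siglech was at 4.33, 4.45 and 4.13 at 6, 24 and 72 h, against 4.50 in sham. Endothelial markers fell in 3, 4 and 4 of 11 and rose in 2, 0 and 0. Of all genes, 12.3%, 12.3% and 10.3% fell and 7.92%, 13.8% and 11.5% rose.

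**Figure D5:**
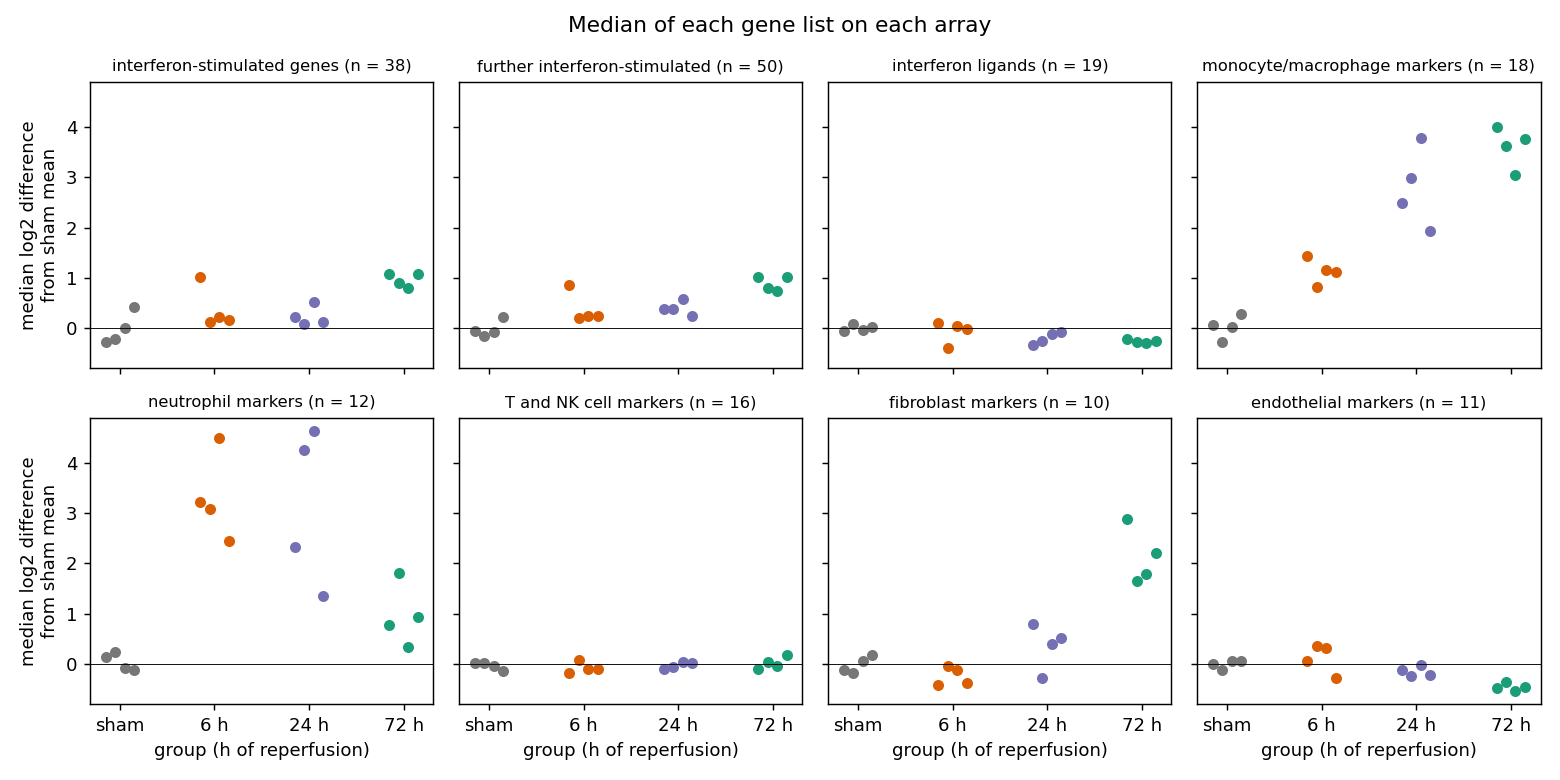
Median log2 signal relative to the sham mean on each array, for the 38 interferon-stimulated genes and for gene lists of the pathway and of other cell types. The 38 genes are highest on the 72 h arrays and on replicate 7 of the 6 h group, and the macrophage markers are higher at 24 h and 72 h than at 6 h.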

How the data were processed

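RNA of 16 hearts was hybridised to Affymetrix arrays, 1 array per heart. Per the submitters' processing notes, the authors made the deposited log2 values with Affymetrix Expression Console. Version, summarization method and genome build: not given in the sources used here. Base 2 was assumed, as no source states it. The deposited values run from 1.83 to 19.82, above plain log2 scanner intensities, so folds hold on that scale, which may stretch them. Array medians were 5.84 to 5.95, and arrays correlated at 0.962 to 0.994. The design text names another array than the identifiers do, and the title other hours than the labels. The identifiers and labels were followed.

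Of 28846 probe sets, 19572 had 1 gene symbol in the platform annotation, 0 had several and 9274 had none. Symbols were updated through the RefSeq table of GRCm38.p6. The probe set with the highest mean was kept per gene, leaving 19505 genes, with no filter on dim genes. Group means were fitted with lmFit and eBayes of limma 3.58.1 (R 4.3.3) (12 residual degrees of freedom, 6.943 prior) and adjusted by Benjamini-Hochberg with a threshold of 0.05. The fit was tested on simulated data. No count depth applies to arrays: their number limits the precision. The labels give 4 hearts per group.

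The 38 genes and the other gene lists were chosen with earlier results of these data known. Values on every array are given, in each role group, for the gene with the largest called change against sham and the gene with the highest mean, and for genes called in opposite directions. The 5 largest called changes are named in each comparison and direction, and up to 4 in each other list. Values for Ifit1 on every array, and the stretches of Isg15, were added after values were seen. Alternatives were quantile and median scaling, 2 spike-in scalings (4 probe sets each), leaving out dim genes, the mean of probe sets, trend and robust settings, array weights, separate fits of each pair of groups, and leaving out each array. Promoter motifs were searched in RefSeq windows of 300 bases. Figures were drawn with matplotlib 3.10.9.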

Additional observations from a re-analysis of the deposited data

Results flagged for a closer look

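In 11 of 152 pairs of a gene and a group, 1 heart lay apart from the other 3 by a gap that was wide against the group's whole range, where chance gives about 1 in 20. At 6 h, 5 of them were on replicate 7, which was the highest for Ifit1 (8.80), Ifit3 (12.35), Oasl1 (4.51), Gbp3 (10.42) and Trim30a (9.44). At 24 h, replicate 17 was the highest for Dtx3l (7.51) and replicate 15 the lowest for Bst2 (8.18). At 72 h, replicate 23 was the highest for Ifit2 (8.91), replicate 21 for Oas3 (3.89) and replicate 20 for Lgals3bp (12.63), and replicate 22 was the lowest for Xaf1 (8.75). Sp100 fell at 6 h and rose at 72 h against the same sham hearts, and the difference between the 2 times was tested directly: 1.58 ± 0.18 (limma, adjusted p = 1.96e-06).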

How the results depend on the processing

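No paired analysis was possible because no replicate number is shared between groups. At 72 h against sham the number of genes that rose was 24 to 37 over the settings, other than omissions, that tested all 38. With dim genes left out it was 23 of 31 tested. It was 22 to 30 when each array was left out in turn, with 22 of the 26 genes called in all 16 omissions and 0 lower. At 6 h it was 4 under either spike-in centring and 5 with only the 2 groups compared, with 4 to 11 higher and 1 lower over omissions, and poly-A centring made 2 lower. At 24 h it was 15 under hybridization centring and 5 to 10 higher, with 0 to 1 lower, over omissions. From 6 h to 24 h, hybridization centring gave 14 higher and 2 lower, and omissions 3 to 4 higher and 4 to 8 lower. From 24 h to 72 h, poly-A centring gave 27 higher, and omissions 11 to 20. From 6 h to 72 h, hybridization and poly-A centring gave 31 and 30 higher, omissions 12 to 25 higher and 0 to 1 lower, and both centrings and the trend and robust settings gave 0 lower. Fewer calls were kept in all 16 omissions elsewhere than at 72 h against sham. Of genes called higher, 4 of 8 were kept at 6 h and 5 of 9 at 24 h. Between times, 3 of 4 were kept from 6 h to 24 h, 11 of 17 from 24 h to 72 h and 10 of 16 from 6 h to 72 h. Centring on hybridization spike-ins moved the median of all genes to -0.26, 0.24 and 0.40 at 6, 24 and 72 h, against -0.04, -0.07 and -0.09 as deposited, and poly-A centring moved it to -0.37, -0.16 and 0.09. Relative to all genes, the median of the 38 was 0.42, 0.26 and 1.05 as deposited and 0.42, 0.26 and 1.06 under hybridization centring. These centrings shift all genes alike, and they turned the sign of 37 (hybridization) and 31 (poly-A) of 228 differences. Among the turned differences that passed the test before or after were those of Gbp2 from 6 h to 72 h (0.69 under hybridization centring) and of Ifi35 (0.0135 from 6 h to 24 h and 0.29 from 6 h to 72 h under hybridization centring, 0.10 from 6 h to 72 h under poly-A centring). Both spike-in centrings rest on 4 probe sets. The cause of these differences was not tested. Of the 38 genes, 8 were below background in all groups, which limits their folds.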
